A study of Mus musculus with 51 samples.

Results

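Tyrobp, Trem2, Csf1r, Ctss, Selplg and Plek, 6 genes of microglial receptors and effectors, were followed in the hippocampus of tau transgenic mice. All probe sets that carry 1 of these symbols in the platform annotation were taken, which gave 9 of 22626 probe sets for 6 of the 11807 genes named there, 1 each for Tyrobp, Csf1r, Ctss and Selplg, 2 for Trem2 and 3 for Plek. The cell body layers of CA1, CA3 and the dentate gyrus (DG) were laser microdissected from 17 mice aged 4.5 months and labelled female, and each of the 51 arrays was made from 1 subfield of 1 mouse. The 6 rTg4510 mice carry a mutant human tau gene behind a tetracycline-responsive promoter together with a tTA transactivator gene driven by the CaMKIIα promoter, which is active in forebrain excitatory neurons and not in microglia. The 5 tTA littermates carry only the transactivator, and the 6 double negative (DN) littermates carry neither transgene. All were littermates from crosses of the tau line with the tTA line, which have different strain backgrounds. Signals are log2 values, so that a difference of 1 is a doubling of signal.

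Microglia are the resident macrophages of the brain. Tyrobp encodes DAP12, the adaptor through which TREM2 signals, TREM2 binds lipids and apolipoproteins on the microglial surface, and CSF1R is the receptor for the growth factors CSF1 and IL-34 on which microglia depend. Cathepsin S (Ctss) is a lysosomal cysteine protease that trims the class II invariant chain and can be secreted, PSGL-1 (Selplg) is the ligand of P-selectin, and pleckstrin (Plek) is a substrate of protein kinase C in platelets and leukocytes.

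The genotype labels were checked with Prnp, whose signal split the arrays into a high set with 17 of the rTg4510 arrays (9.59 to 10.55) and a low set with 29 of the tTA and DN arrays (6.57 to 8.76). It went against the label in 5 arrays, the CA1, CA3 and DG arrays labelled DN mouse 4, the DG array labelled DN mouse 5 and the DG array labelled rTg4510 mouse 3. Xist, which marks female cells, was at 2.49 to 4.06 in 3 arrays and at 7.85 to 10.26 in the other 48. The 3 are the last of these 5 and, for DN mouse 5, its labelled CA1 and CA3 arrays. Of the 41 differences of single probe sets that were refitted without these arrays, those that moved by more than 1.5 times are given both ways. Other differences were not refitted without them. These include the tests of the genotype difference between subfields and all values of the marker and pathway lists, so their dependence on these arrays is not known. The median signal of an array was 2.91 to 3.12, and the 3′ minus 5′ signal of Gapdh was 1.62 to 3.63. The number of arrays limits the precision. No detection call was made, so signal below the array median was treated here as not separable from background.

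The 9 probe sets did not sit at the same part of the range. Ctss lay above the array median in 51 of 51 arrays and Tyrobp in 50 of 51. Csf1r lay above it in 22 arrays, Plek 1417523_at in 15, Selplg in 6, Plek 1448748_at in 5 and Trem2 1421226_at in 1, whereas Trem2 1421792_s_at and Plek 1448749_at lay below it in every array. For bulk tissue of this kind, a lower signal from fewer microglia and one from less RNA in each microglial cell cannot be told apart. A neuronal layer holds few microglia, and of 22 measured microglial markers 1 to 13 were above the array median in any 1 array. Itgam, Sall1 and Cd14 were not above it in any array, and Cd53, with 44 arrays, and Aif1, with 37, were above it most often.

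**Figure D1:**
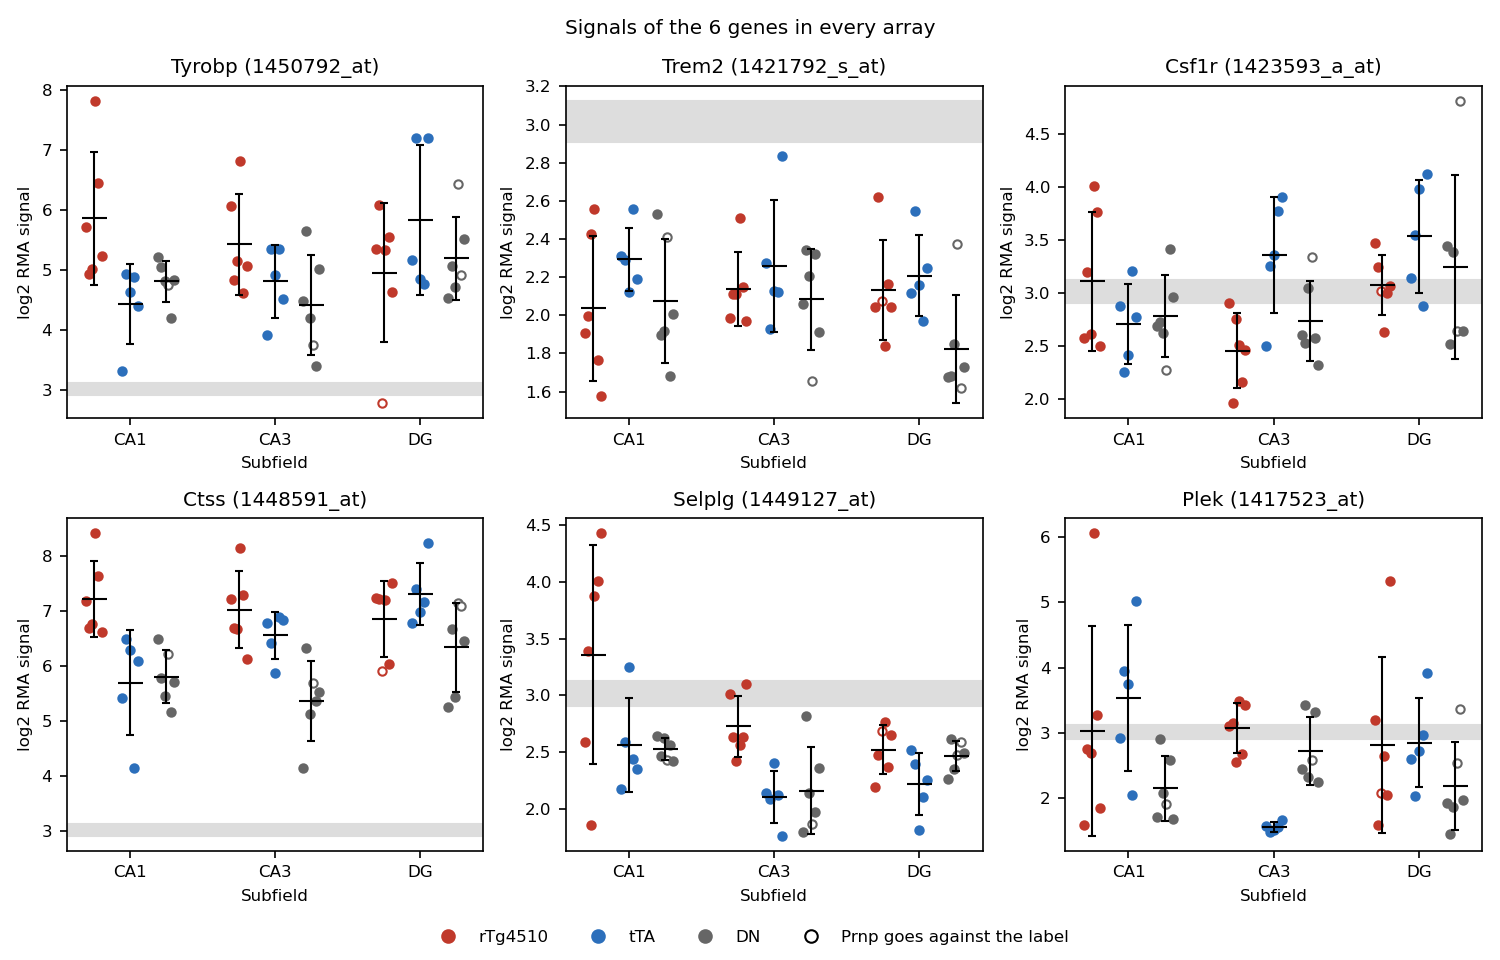
Log2 RMA signal (vertical axis) of the probe set with the highest mean for each gene, by subfield (horizontal axis) and genotype, in 51 arrays. Points are arrays, bars are the mean ± SD, open points mark the 5 arrays with a Prnp signal opposite to the label, and the grey band spans the array medians; in CA1 the 6 rTg4510 arrays of Ctss lie between 6.61 and 8.42, above all tTA and DN arrays.

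To see whether these genes differed with the tau transgene, rTg4510 mice were compared with tTA mice within every subfield and in each mouse's mean over its 3 subfields. None of the 9 probe sets passed an adjusted p of 0.05 from limma. The share of all 22626 probe sets that did so was 0% in CA1, 0.00442% in CA3, 0% in the DG and 0% in the mean. At an unadjusted p under 0.05 there were 3 of 9 in CA1 (3.97% of all probe sets), 4 in CA3 (5.91%), 1 in the DG (5.71%) and 2 in the mean (5.35%). The groups did not overlap for 1 probe set in CA1 (0.411% of all), 2 in CA3 (0.659%), none in the DG (0.411%) and none in the mean (0.438%). The median difference of the 9 was 0.10 in CA1, 0.35 in CA3, -0.06 in the DG and 0.22 in the mean, beside -0.02, -0.03, -0.01 and -0.02 over all probe sets. The genes did not move as a block. Ctss and Tyrobp had their largest positive differences in CA1, Selplg had positive differences in all 3 subfields, the Trem2 probe sets stayed below the array median in nearly all arrays, and the probe sets of Plek went opposite ways.

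**Figure D2:**
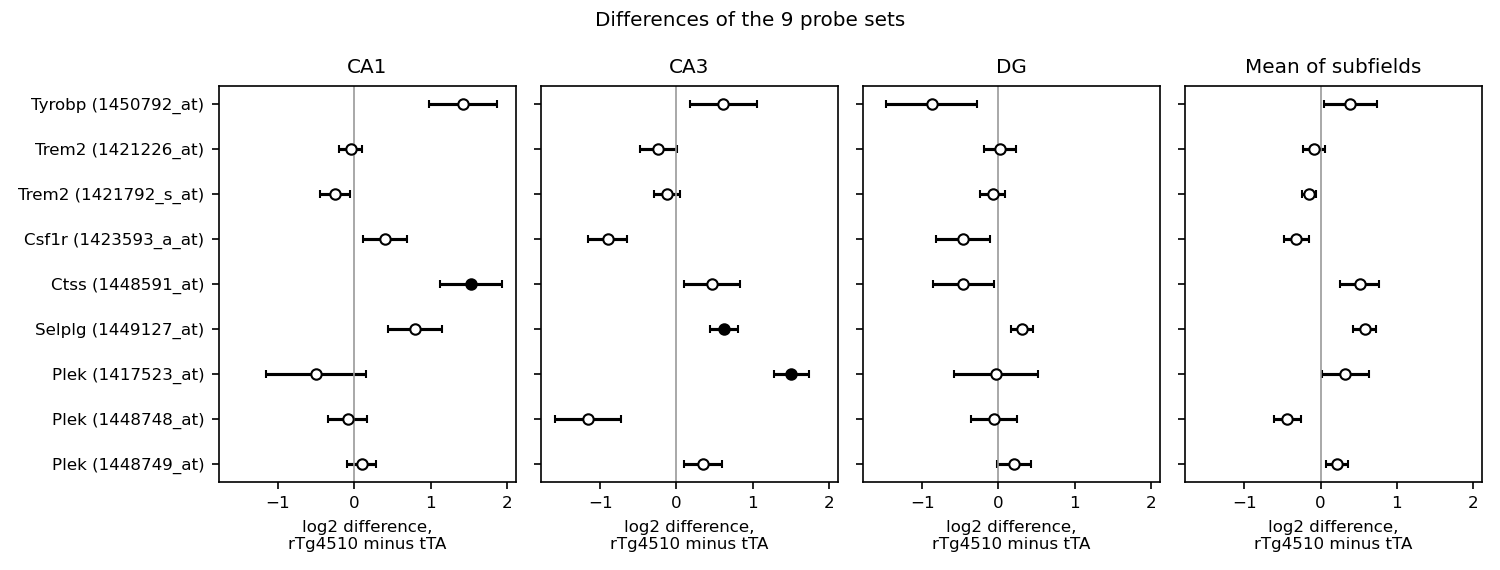
Log2 difference of rTg4510 minus tTA mice (horizontal axis) for each of the 9 probe sets (vertical axis) in CA1, CA3, DG and the mean of subfields. Points are limma estimates with their standard error (SE), and filled points mark groups that do not overlap, which are Ctss in CA1 (1.53) and Selplg (0.62) and Plek 1417523_at (1.51) in CA3.

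Ctss, the lysosomal protease, had the clearest separation in CA1. Its signal was 6.61 at the lowest, 6.98 at the median and 8.42 at the highest in the 6 rTg4510 mice, against 5.42, 6.50, 6.30, 4.14 and 6.10 in the tTA mice and 5.16, 5.74 and 6.49 (lowest, median, highest) in the DN mice. All 6 rTg4510 arrays lay above all tTA and all DN arrays. The difference was 1.53 from tTA mice (SE 0.41, with an adjusted p = 0.999 from limma) and 1.42 from DN mice (SE 0.39, adjusted p = 0.726). The lowest tTA array, of mouse 4, carried part of it, since the difference from tTA mice was 1.14 without that mouse.

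In CA3, Ctss was graded over the 3 genotypes. It measured 6.13, 6.96 and 8.16 (lowest, median, highest) in rTg4510 mice, 6.78, 6.42, 5.87, 6.89 and 6.84 in tTA mice, and 4.15, 5.45 and 6.33 in DN mice. The rTg4510 and tTA arrays overlapped, and 4 of 5 tTA arrays and 5 of 6 rTg4510 arrays lay above every DN array. The differences were 0.47 between rTg4510 and tTA mice (SE 0.37, adjusted p = 0.879), 1.20 between tTA and DN mice (SE 0.37, adjusted p = 0.779) and 1.67 between rTg4510 and DN mice (SE 0.35, adjusted p = 0.672), and none passed the limma test. Without rTg4510 mouse 4 the difference between rTg4510 and tTA mice was 0.24, and without tTA mouse 3 it was 0.29.

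In the DG the means of the 2 transgenic groups were in the other order, but their medians were not (7.22 in rTg4510 and 7.17 in tTA mice). Ctss measured 5.92, 7.22 and 7.51 (lowest, median, highest) in rTg4510 mice, 6.78, 7.40, 6.99, 7.17 and 8.24 in tTA mice, and 5.26, 6.56 and 7.14 in DN mice. The difference between rTg4510 and tTA mice was -0.46 (SE 0.40, adjusted p = 0.919), and -0.27 without the 5 arrays. That between rTg4510 and DN mice was 1.09 without those arrays, against 0.51 with them. Averaged over subfields, Ctss was 7.04 ± 0.51 in rTg4510 mice (SD, n = 6), 6.52 ± 0.39 in tTA mice (SD, n = 5) and 5.84 ± 0.44 in DN mice (SD, n = 6). The mouse means of rTg4510 mice lay above all DN mouse means, with a difference of 1.20 (SE 0.25, adjusted p = 0.37 from limma) and of 1.45 without the 3 mice of the doubted arrays (adjusted p = 0.216).

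The start regions of Ctss, Plek and Trem2 are shown because the microglial transcription factor PU.1 (Spi1) recognizes sites with the core GAGGAA, and these are the 3 of the 6 genes with an entry in the RefSeq promoter table (GRCm38.p6). Each run covers 250 bases before to 50 bases after the start of the gene on its own strand, with matches to GAGGAA or its reverse complement TTCCTC in capitals, and with ACTTCCTC, the reverse complement of the longer GAGGAAGT, also in capitals. GAGGAA lies inside GAGGAAGT, so the second match in Ctss is 1 site under both motifs.
Ctss, chr3:95526536-95526835, plus strand: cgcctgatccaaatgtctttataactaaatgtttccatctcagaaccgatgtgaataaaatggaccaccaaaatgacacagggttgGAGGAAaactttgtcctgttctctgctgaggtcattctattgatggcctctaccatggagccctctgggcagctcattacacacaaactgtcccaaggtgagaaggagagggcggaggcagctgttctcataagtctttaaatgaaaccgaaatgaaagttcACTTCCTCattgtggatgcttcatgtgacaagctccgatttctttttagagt
Plek, chr11:17008669-17008968, minus strand: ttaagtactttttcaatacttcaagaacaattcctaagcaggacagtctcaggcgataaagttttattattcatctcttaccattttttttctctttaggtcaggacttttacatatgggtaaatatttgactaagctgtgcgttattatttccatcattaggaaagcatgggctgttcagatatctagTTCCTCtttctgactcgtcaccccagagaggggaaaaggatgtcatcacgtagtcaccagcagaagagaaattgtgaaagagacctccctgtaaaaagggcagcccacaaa
Trem2, chr17:48346151-48346450, plus strand: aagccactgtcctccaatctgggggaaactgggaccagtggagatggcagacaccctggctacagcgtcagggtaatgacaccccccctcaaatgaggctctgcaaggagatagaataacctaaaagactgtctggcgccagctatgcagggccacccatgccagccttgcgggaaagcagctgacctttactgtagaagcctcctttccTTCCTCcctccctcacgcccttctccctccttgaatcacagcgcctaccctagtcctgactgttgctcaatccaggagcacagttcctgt
All 3 start regions held GAGGAA on either strand, Ctss on both, which 28.3% of the 32851 regions in the table also do, and Ctss held GAGGAAGT, which 3.2% do. A match describes these letters and is not a bound site. Spi1 itself was above the array median in 2 of 51 arrays, and rTg4510 minus tTA gave 0.06 for it in CA1 (SE 0.12), -0.37 in CA3 (SE 0.16) and -0.24 in the DG (SE 0.33).

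Tyrobp, the adaptor of TREM2, followed Ctss in CA1. It measured 4.93, 5.47 and 7.81 (lowest, median, highest) in rTg4510 mice, against 3.31, 4.94, 4.62, 4.88 and 4.40 in tTA mice and 4.20, 4.82 and 5.21 in DN mice. Of the 6 rTg4510 arrays, 5 lay above all tTA arrays, and mouse 4 was the highest. The difference was 1.43 from tTA mice (SE 0.44, adjusted p = 0.999) and 1.05 from DN mice (SE 0.42, adjusted p = 0.868). In CA3 it was 5.42 ± 0.84 in rTg4510 mice (SD, n = 6) and 4.81 ± 0.61 in tTA mice (SD, n = 5), and the groups overlapped. The mean of subfields differed by 0.39 (SE 0.35, adjusted p = 0.938), by 0.61 without the 3 mice of the doubted arrays, and by 0.14 without rTg4510 mouse 4 or 0.17 without tTA mouse 1. In the DG its mean was lower in rTg4510 mice, with 2.78, 5.34 and 6.08 (lowest, median, highest), against 5.16, 7.20, 4.84, 4.76 and 7.19 in tTA mice. The medians went the other way, with 5.34 in rTg4510 and 5.16 in tTA mice. The lowest rTg4510 value is that of the DG array labelled rTg4510 mouse 3. The difference of -0.88 (SE 0.59, adjusted p = 0.898) was -0.44 without the 5 arrays. Whether the genotype difference was unequal between subfields was tested on the difference between subfields within each mouse. For Tyrobp the rTg4510 minus tTA difference was 2.30 larger in CA1 than in the DG (SE 0.66, unadjusted p = 0.00276, adjusted p = 0.99 from limma), and for Ctss 1.99 larger (SE 0.58, unadjusted p = 0.00313, adjusted p = 0.99). No member passed in any of the 3 such tests, and of all probe sets 0% passed for CA1 against CA3, 0% for CA1 against DG and 0% for CA3 against DG.

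**Figure D3:**
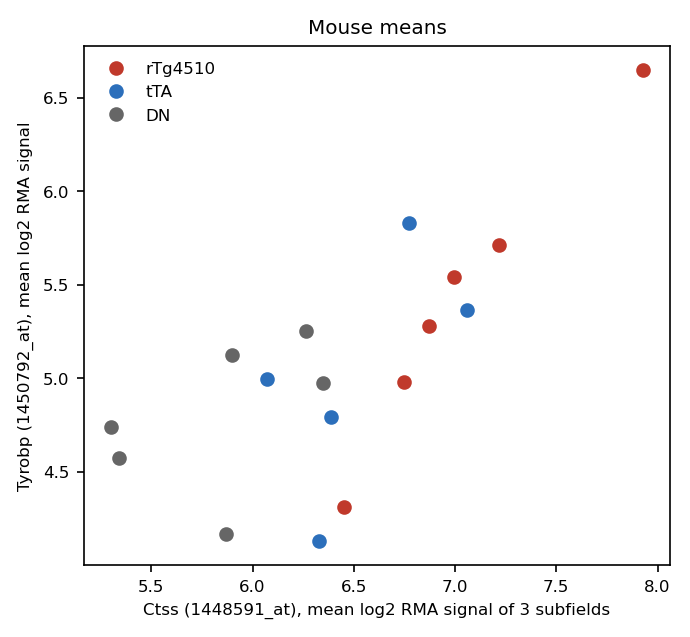
Mean log2 RMA signal of Tyrobp (vertical axis) and of Ctss (horizontal axis) over the 3 subfields, 1 point per mouse, by genotype. Over the 17 mice r is 0.74; rTg4510 mouse 4, with 6.65 for Tyrobp and 7.93 for Ctss, is the highest in both.

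The mouse means of Tyrobp and Ctss had a Pearson r of 0.74 and a Spearman rho of 0.73 over 17 mice, as a description of points that share the genotype groups and the arrays. The probe sets most like Tyrobp over these means were those of Gng5, a G protein subunit (r = 0.94), Bpnt2, a nucleotide phosphatase (0.90), Kcnmb2, a potassium channel subunit (0.88), 1460180_at, which has no name in the annotation (0.88), and C1qc, a chain of complement C1q (0.86). Those most like Ctss were Erbin, a scaffold protein (0.90), 1416666_at, which has no name (0.90), Ifitm3, an interferon-induced membrane protein (0.89), Itih3, an inhibitor heavy chain (0.89), and Gstm1, a glutathione transferase (0.87).

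Both Trem2 probe sets stayed low in all groups. The brighter one, 1421792_s_at, measured 1.58, 1.95 and 2.56 (lowest, median, highest) in CA1 of rTg4510 mice, against 2.31, 2.29, 2.12, 2.56 and 2.19 in tTA mice and 1.68, 1.96 and 2.53 in DN mice. Of the 6 rTg4510 arrays, 4 lay below all tTA arrays, and the ranges overlapped. Its differences between rTg4510 and tTA mice were -0.26 in CA1 (SE 0.19), -0.12 in CA3 (SE 0.17) and -0.08 in the DG (SE 0.16), and those of 1421226_at were -0.05, -0.24 and 0.02 (SEs 0.15, 0.24 and 0.21). Over all arrays the 2 probe sets ranged from 1.58 to 2.84 and from 1.34 to 3.0. A difference in Trem2 was not detectable at this signal.

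Csf1r 1423593_a_at, a probe set of the receptor that sustains microglia, had differences of opposite sign in CA3 and CA1. In CA3 it measured 1.96, 2.49 and 2.90 (lowest, median, highest) in rTg4510 mice, against 2.51, 3.26, 3.36, 3.77 and 3.91 in tTA mice and 2.32, 2.59 and 3.35 in DN mice. All 6 rTg4510 arrays and 1 of 5 tTA arrays were below the array median, and 3 of the rTg4510 arrays were below every tTA array. The difference was -0.90 (SE 0.25, adjusted p = 0.787). In CA1 it was 0.41 (SE 0.29, adjusted p = 0.999), in the DG -0.46 (SE 0.35, adjusted p = 0.903), and the test of CA1 against CA3 gave 1.31 (SE 0.43, adjusted p = 1).

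A further 2 probe sets are named Csf1r only in the supplementary tables of the study and so fall outside the rule. One of them, 1419872_at, was above the array median in 51 of 51 arrays. In CA3 it differed by -0.28 (SE 0.83, adjusted p = 0.978), with 4.97, 7.53 and 8.70 (lowest, median, highest) in rTg4510 mice against 7.30, 7.93, 7.79, 7.55 and 6.67 in tTA mice. The groups overlapped. The other, 1419873_s_at, differed by -1.29 in CA3 (SE 0.57, adjusted p = 0.819). All 3 Csf1r probe sets had a negative difference between rTg4510 and tTA mice in CA3. In CA1 the differences were positive (0.41 for 1423593_a_at, 0.06 for 1419872_at and 0.36 for 1419873_s_at), and in the DG they differed in sign (-0.46, -0.07 and 0.45). None of these differences passed, and the CA3 medians of 1419872_at were 7.53 in rTg4510 and 7.55 in tTA mice. Over the 17 mouse means, 1423593_a_at had a Pearson r of 0.13 with 1419872_at and 0.12 with 1419873_s_at, which had 0.63 with each other.

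Selplg, the P-selectin ligand, had positive differences in every subfield, at signals that were above the array median in only 6 of 51 arrays. In CA1 it measured 1.86, 3.64 and 4.43 (lowest, median, highest) in rTg4510 mice, against 2.18, 2.59, 3.25, 2.44 and 2.35 in tTA mice and 2.42, 2.51 and 2.64 in DN mice. Of the 6 rTg4510 arrays, 4 lay above all tTA arrays and 1 below them. In CA3 it measured 2.42, 2.64 and 3.10 in rTg4510 mice, against 2.14, 2.09, 2.40, 2.12 and 1.76 in tTA mice and 1.80, 2.06 and 2.82 in DN mice, and all rTg4510 arrays lay above all tTA arrays. The differences between rTg4510 and tTA mice were 0.80 in CA1 (SE 0.36, adjusted p = 0.999), 0.62 in CA3 (SE 0.19, adjusted p = 0.787) and 0.31 in the DG (SE 0.14, adjusted p = 0.868). Averaged over subfields it was 0.58 (SE 0.15, adjusted p = 0.767), with 5 of 6 rTg4510 mice above all tTA mice. Against DN mice the difference of that mean was 0.49 (SE 0.14, adjusted p = 0.754).

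Plek had 3 probe sets, whose differences had no common sign. In CA3, 1417523_at measured 2.56, 3.13 and 3.50 (lowest, median, highest) in rTg4510 mice, against 1.57, 1.48, 1.52, 1.57 and 1.67 in tTA mice and 2.25, 2.52 and 3.43 in DN mice. The tTA arrays stood apart, below all rTg4510 and all DN arrays and with an SD of 0.07. All 5 lay below the array median, where signal was treated as not separable from background, so the size of the differences from them is uncertain. The difference was 1.51 between rTg4510 and tTA mice (SE 0.23, adjusted p = 0.0687), -1.16 between tTA and DN mice (SE 0.23, adjusted p = 0.304) and 0.34 between rTg4510 and DN mice (SE 0.22, adjusted p = 0.984). The difference from tTA mice passed under 5 of 28 alternative settings, over all of which the adjusted p was 0.0247 to 0.588. The 5 were an intensity trend, quantile normalization, fitting just the rTg4510 and tTA mice, and leaving out DN mouse 2 (0.0247) or DN mouse 5 (0.0436). The same probe set went the other way in CA1, at 3.03 ± 1.60 in rTg4510 mice (SD, n = 6) and 3.53 ± 1.12 in tTA mice (SD, n = 5), where rTg4510 mouse 4 reached 6.05. The second probe set, 1448748_at, measured 1.89, 2.11 and 2.34 (lowest, median, highest) in CA3 of rTg4510 mice, against 2.35, 2.56, 4.80, 4.67 and 1.95 in tTA mice. Mice 3 and 4 of the tTA group were high, and the difference was -1.16 (SE 0.44, adjusted p = 0.819), opposite in sign to that of 1417523_at. The third, 1448749_at, differed by 0.35 in CA3 (SE 0.25, adjusted p = 0.872), 0.10 in CA1 and 0.20 in the DG.

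**Figure D4:**
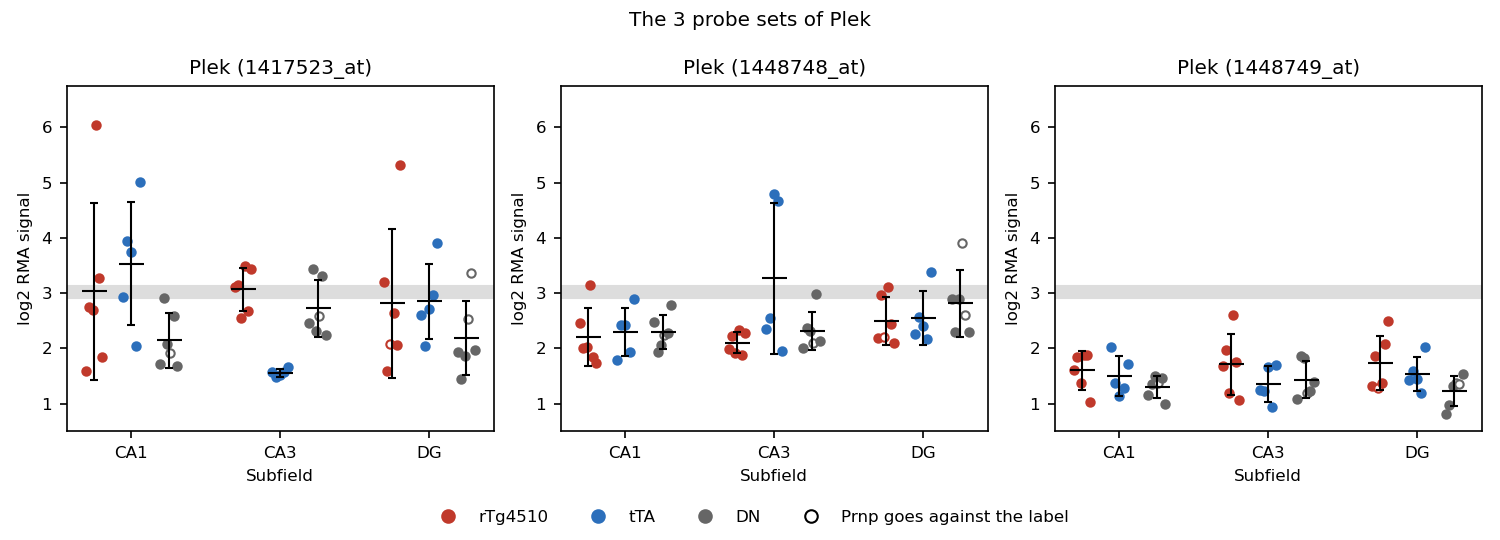
Log2 RMA signal (vertical axis) of the 3 Plek probe sets by subfield (horizontal axis) and genotype, with points for arrays, bars for the mean ± SD, open points for the 5 arrays with a Prnp signal opposite to the label, and the grey band for the array medians. The 5 tTA arrays of 1417523_at in CA3 lie between 1.48 and 1.67, and those of 1448748_at between 1.95 and 4.80.

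Against DN littermates, no member passed in rTg4510 mice in any subfield or the mean, where 0.00442% of all probe sets did so in CA1, 0% in CA3, 0% in the DG and 0% in the mean. Groups did not overlap for Ctss in CA1 (1 of 9 members, 0.265% of all probe sets) and in the mean (1 of 9, 0.164%), and for no member in CA3 (0.203%) or the DG (0.164%). To see what the tTA transgene alone went with, tTA mice were compared with DN mice. No member passed in any of these comparisons, nor did any probe set at all (0% in CA1, 0% in CA3, 0% in the DG and 0% in the mean). Groups did not overlap for Plek 1417523_at in CA3 (1 of 9, 0.522%), and for no member in CA1 (0.349%), the DG (0.53%) or the mean (0.526%). The tTA mice enter both comparisons, so a low or high tTA value moves both. Ctss differed between tTA and DN mice by -0.11 in CA1, 1.20 in CA3, 0.97 in the DG and 0.69 in the mean (SEs 0.41, 0.37, 0.40 and 0.26). The CA1 value was -0.03 without the 5 arrays and -0.17 with a further 2 arrays left out, those of CA1 and CA3 in DN mouse 5.

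To see how the genes were distributed over the hippocampus, subfields were compared within mice over the 3 genotypes. Selplg was higher in CA1 than in CA3, with 2.83 ± 0.71 in CA1 and 2.34 ± 0.41 in CA3 (SD, n = 17), a difference of 0.49 (SE 0.14, adjusted p = 0.0388 from limma), and it was higher in CA1 in 14 of 17 mice. That is 1 of 9 members, beside 4.68% of all probe sets, and both means lay below every array median, so that the size of the difference is uncertain. The call was lost when any 1 of 11 mice was left out (DN mice 1, 3, 4 and 5, rTg4510 mice 2, 4, 5 and 6, tTA mice 2, 3 and 5), where the difference was 0.43 to 0.49 with an adjusted p of 0.0574 to 0.0938, and without the 5 arrays (adjusted p = 0.0516). Within a genotype the difference was 0.63 in rTg4510 mice, 0.46 in tTA mice and 0.37 in DN mice, and none of these passed. Selplg was also 0.42 higher in CA1 than in the DG (SE 0.14, adjusted p = 0.0527). No member passed in CA1 against the DG, where 10.9% of all probe sets did, or in CA3 against the DG, where 13.9% did.

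Ctss measured 6.27 ± 0.99 in CA1 and 6.30 ± 0.95 in CA3, against 6.81 ± 0.77 in the DG (SD, n = 17 each), and Tyrobp 5.07 ± 0.96, 4.89 ± 0.85 and 5.30 ± 1.05 in the same order, so the DG was the highest of the 3 for both, by less than the spread between mice and with no difference past the test. The difference between CA1 and the DG was -0.54 for Ctss (SE 0.25, adjusted p = 0.198) and -0.23 for Tyrobp (SE 0.29, adjusted p = 0.739). For Csf1r, 1423593_a_at was highest in the DG (3.27 ± 0.61), with 2.88 ± 0.50 in CA1 and 2.82 ± 0.55 in CA3. The additional probe set 1419872_at was 6.82 ± 1.54 in CA3 and 8.22 ± 0.99 in the DG, a difference of -1.40 (SE 0.32, adjusted p = 0.00223), with CA3 higher in 4 of 17 mice. Without the 5 arrays it was -1.24 (adjusted p = 0.00854). Neither of the other Csf1r probe sets passed between CA3 and the DG. Their differences from limma were -0.45 for 1423593_a_at (SE 0.19, adjusted p = 0.121) and -0.35 for 1419873_s_at (SE 0.34, adjusted p = 0.569). The mean of 1419873_s_at was lowest in CA1 (3.41), with 3.56 for CA3 and 3.91 for the DG.

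**Figure D5:**
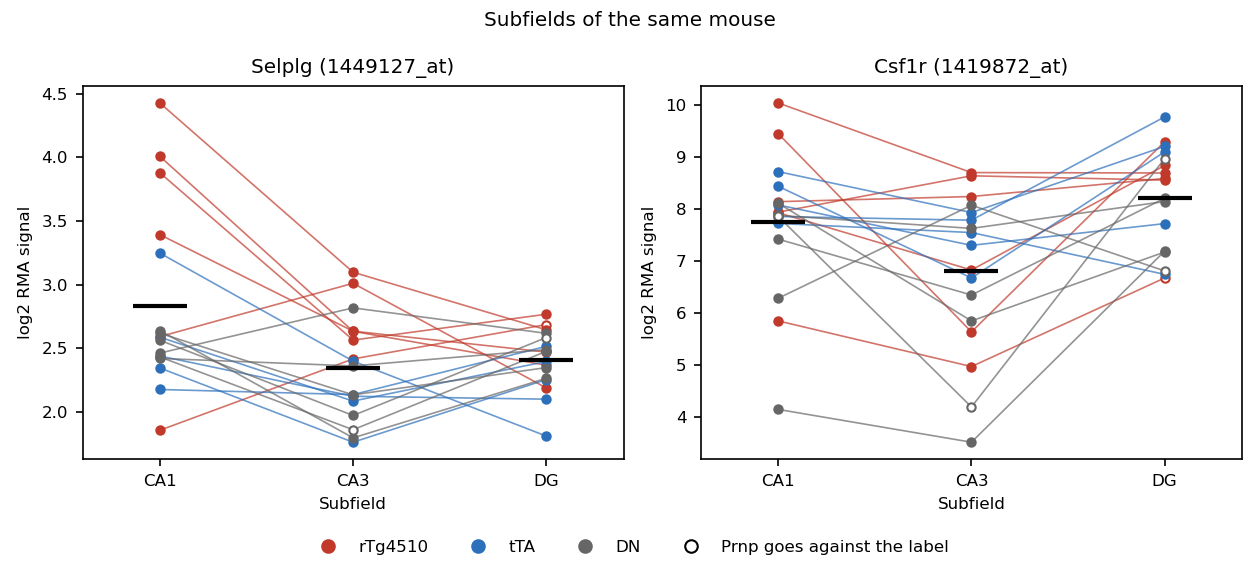
Log2 RMA signal (vertical axis) of Selplg 1449127_at and of the additional Csf1r probe set 1419872_at by subfield (horizontal axis), with a line for each of the 17 mice, black bars for the mean of a subfield and open points for arrays whose Prnp goes against the label. Selplg is highest in CA1 (mean 2.83) and Csf1r 1419872_at lowest in CA3 (mean 6.82).

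Other microglial markers were set beside the members. In CA1, 16 of 22 were higher in rTg4510 than in tTA mice, with a median difference of 0.33 beside -0.02 over all probe sets, and none passed the test. The 4 with the smallest p were P2ry12, a purine receptor (0.87, SE 0.33), C1qc (1.46, SE 0.60) and C1qa (0.90, SE 0.42), chains of complement C1q, and Cx3cr1, the fractalkine receptor (0.68, SE 0.32), all with an adjusted p = 0.999. The sum of the log2 signals of the 22 was 50.7 to 82.4 in rTg4510 mice (median 56.9), 47.8 to 55.8 in tTA mice (53.5) and 47.1 to 57.2 in DN mice (48.9). In CA3, 13 of 22 were higher (median 0.07, summed signal 48.8 to 66.6 in rTg4510, 47.6 to 58.9 in tTA and 45.1 to 57.1 in DN mice), and in the DG 11 of 22 (median 0.00, summed signal 50.4 to 63.1, 51.5 to 66.2 and 46.0 to 60.4 in the same genotypes). Of the 15 disease-associated microglial genes measured, 11 were higher in CA1 (median 0.07), 7 in CA3 (-0.02) and 9 in the DG (0.24), none past the test. Among them Cst7, Clec7a and Ch25h were above the array median in no array, and Itgax and Ccl6 in 1. Lpl, Fth1, Ctsb, Ctsd and Apoe were above it in all 51, and the others lay in between. Which cells gave this signal was not tested.

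Markers of other glia and of vessels differed in the same direction in CA1, none past the test. The 9 oligodendrocyte markers were all higher in rTg4510 than in tTA mice (median 1.19), as were the 11 astrocyte markers (median 0.35), and 9 of 13 vessel markers were (0.28). The summed oligodendrocyte signal in CA1 was 49.4 to 66.5 in rTg4510 mice, 36.0 to 54.3 in tTA mice and 31.2 to 50.3 in DN mice, and the astrocyte sum 62.8 to 81.2, 58.8 to 65.3 and 57.9 to 68.1 in the same order of genotypes. The medians in that order were 52.1, 44.9 and 39.2 for oligodendrocytes and 66.6, 62.3 and 60.4 for astrocytes. In CA3 all 9 oligodendrocyte (median 1.0), 8 of 11 astrocyte (0.14) and 11 of 13 vessel markers (0.28) were higher. In the DG the Ctss and Tyrobp differences were negative by the means but not by the medians. There, all 9 oligodendrocyte (0.79), all 11 astrocyte (0.27) and 12 of 13 vessel markers (0.32) were higher. The part of this in the differences of Ctss and Tyrobp was not tested. Markers of blood cells and of perivascular macrophages had no such tilt in CA1. Of 9 monocyte and neutrophil markers 1 was higher in CA1 (median -0.09), of 8 lymphocyte markers 1 (-0.08), of 8 markers of perivascular macrophages 4 (-0.11) and of 6 of platelets and red cells 2 (-0.06). In CA3 the counts were 3, 1, 3 and 2 in the same order (medians -0.12, -0.18, -0.06 and -0.13). In the DG they were 6, 3, 6 and 3 (medians 0.03, -0.02, 0.09 and 0.06). Hba-a1, a hemoglobin chain, was above the array median in all 51 arrays. The other markers of these 4 lists were above it in at most 5 arrays (Cd163), and Ccr2, S100a8, Mrc1, Pf4 and Ppbp, among others, in none. Of 11 neuronal markers 8 were higher in CA1 (0.05).

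The partners of the members were read from lists of each pathway. None of them passed between rTg4510 and tTA mice in any subfield. Of 12 genes of TREM2 and DAP12 signalling, 5 were higher in CA1 (median -0.03), 4 in CA3 (-0.08) and 7 in the DG (0.02), and those with the smallest p in CA1 were Pik3cg, a kinase of phosphoinositides (-0.28, SE 0.16), Syk, the kinase that DAP12 recruits (0.20, SE 0.12), and Trem3 (-0.24, SE 0.16). Of 6 genes of CSF1 receptor ligands and regulators, 4 were higher in CA1 and 1 in CA3. Cbl, a ubiquitin ligase that removes the receptor from the surface, differed by 0.76 in CA1 (SE 0.31), Il34 by 0.33 (SE 0.23) and Csf1 by 0.68 (SE 0.55). Of 12 genes around cathepsin S, 8 were higher in CA1 and in the DG and 6 in CA3. In CA1 they included Ctsd, another lysosomal protease (0.67, SE 0.23), Lgmn, legumain (0.90, SE 0.39), and Cst3, cystatin C, an inhibitor of these proteases (0.51, SE 0.23). Of 6 genes of the P-selectin pathway 3 were higher in CA1, with Fut7, which fucosylates the ligand, at -0.26 (SE 0.16). Of the 3 protein kinase C genes measured, Prkcd differed by 0.98 (SE 1.17), Prkca by -0.15 (SE 0.33) and Prkcb by -0.12 (SE 0.45).

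Between subfields the ligands of the CSF1 receptor passed the test in opposite directions. Csf1 was lower in CA1 and in CA3 than in the DG, with differences of -2.32 and -2.45 (SE 0.45 for both, adjusted p = 0.000375 and 0.000135 from limma). Il34 was lower in CA1 than in CA3 (-0.75, SE 0.18, adjusted p = 0.00912) and higher in CA3 than in the DG (1.27, SE 0.18, adjusted p = 2.81e-06), although it was above the array median in only 5 of 51 arrays, and Csf1 in 23. Of the 22 microglial markers 3 passed in CA3 against the DG, where 13.9% of all probe sets did, so the count is near the background. C1qc (-0.87, SE 0.29, adjusted p = 0.039) and Cx3cr1 (-0.63, SE 0.19, adjusted p = 0.0236) were lower in CA3, and Itgam, an integrin chain, was higher (0.27, SE 0.08, adjusted p = 0.0123), although it was below the array median in every array. Of the 12 genes around cathepsin S, 1 passed as higher and 1 as lower in CA1 than in the DG, where 10.9% of all probe sets passed. The counts were the same in CA3 against the DG, and 1 passed as higher in CA1 than in CA3 (4.68% of all probe sets). Among the 12, Cst3 was lower in CA1 and in CA3 than in the DG (-0.40 and -0.39, SE 0.10 for both). All 3 protein kinase C genes passed as higher in CA3 than in the DG and 2 as higher in CA1 than in the DG. In CA1 against CA3, 1 passed as lower. Prkcd was lower in CA1 than in CA3 (-3.35, SE 0.39) and higher in CA3 than in the DG (3.23, SE 0.39), both past the test. Prkca and Prkcb were above the array median in all 51 arrays and Prkcd in 34. Which cells of the layers gave this signal was not tested.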

How the data were processed

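RNA from laser microdissected CA1, CA3 and DG cell layers of 17 mice was amplified and hybridized by the authors to Affymetrix mouse arrays, 1 array per subfield and mouse. The deposited table holds log2 signals after the authors' RMA normalization. The study's methods call them anti-log, but the values span a log2 range. Of 22716 probe sets, 90 controls were left out, and 22626 were tested. The platform annotation gave 18003 probe sets 1 symbol, 287 several and 4336 none. Genotypes were compared within a subfield, in the mean of 3 subfields of each mouse, and in differences between subfields, with limma 3.58.1 in R 4.3.3, the 3 genotypes fitted together and p-values adjusted over all probe sets by the Benjamini-Hochberg method (threshold 0.05). For subfield comparisons each mouse was a fixed block, since each mouse gave 3 arrays. Residuals of arrays of the same mouse correlated with a mean r of 0.05, against -0.00 for arrays of other mice and subfields. The mice are separate animals by the labels. The fits were tested on simulated data. Every probe set of the 6 genes is described. Values per array are given for the brightest of each gene in the platform annotation and for any other with an unadjusted p under 0.05 between rTg4510 and tTA mice. Of each list, up to 4 genes with the smallest p in CA1 are given. The members and lists were chosen with earlier results of these data known. Each listed gene was read from its brightest probe set, and listed genes without one were not analysed here. Alternatives were Fisher's least significant difference test of the study's methods, other normalizations, filters, weights, blocks and subsets of arrays. Promoter sequences are from RefSeq (GRCm38.p6), which held 3 of the 6 genes in the table used here.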

Additional observations from a re-analysis of the deposited data

Results flagged for a closer look

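Of 81 groups of 5 or 6 arrays, 4 had 1 array far from the others by Dixon's test, or 4.94%, and chance gives about 1 in 20. The Trem2 probe set 1421792_s_at was at 2.51 in CA3 of rTg4510 mouse 4, where the next array was at 2.15. It was at 2.38 in the DG array labelled DN mouse 4, with the next at 1.85. The Plek probe set 1448748_at was at 2.98 in CA3 of DN mouse 5, with the next at 2.37, and at 3.91 in the DG array labelled DN mouse 4, with the next at 2.90. Both DG arrays are the same array, whose Prnp signal goes against its label, and the CA3 array of DN mouse 5 has a low Xist signal.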

How the results depend on the processing

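Of 1098 recomputed values of 41 differences, 1042 kept their direction and side of the threshold. The settings without 5 or 7 arrays were chosen after seeing the data. Of the 9 members, 1 (Plek 1417523_at) passed between rTg4510 and tTA mice in CA3 with an intensity trend, with quantile normalization and with only the 2 genotypes compared, and 0 to 1 when a mouse was left out. Between CA1 and CA3, 0 passed with median centring, within each genotype, and without 5 or 7 arrays, and 0 to 1 when a mouse was left out. Between CA1 and the DG, 1 (Selplg) passed with the mouse as a random block, median centring, a filter at the 40th percentile, and without 5 or 7 arrays, and 0 to 1 when a mouse was left out.

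Selplg in CA1 minus CA3 was 0.45 with median centring (adjusted p = 0.0541 from limma), 0.63 within rTg4510, 0.46 within tTA and 0.37 within DN mice, 0.48 without the 5 arrays, 0.47 without the 7 arrays, and 0.43 to 0.55 when a mouse was left out. With no replicate block for the mouse it was 0.49, and 1 member passed in CA1 minus CA3, as with the block. Leaving out the block changed no call. With the mouse as a random block, Selplg passed in CA1 minus DG (0.42, adjusted p = 0.0466 from limma). Csf1r 1419872_at in CA3 minus DG was -1.27 within rTg4510, -1.06 within tTA and -1.81 within DN mice, none past the threshold, and -1.57 to -1.19 when a mouse was left out, where it passed each time.

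None of the differences that changed sign was called. Between rTg4510 and tTA mice, Trem2 1421792_s_at was 0.026 in CA3 without tTA mouse 5 and 0.0076 in the DG without tTA mouse 2, in ranges of -0.20 to 0.026 and -0.17 to 0.0076 when a mouse was left out. Plek 1417523_at was 1.42 in CA1 and 3.23 in the DG in linear signal units (least significant difference test), and in the DG 0.091 with array weights, 0.12 without the 5 arrays and 0.00 to 0.23 without rTg4510 mice 2 to 5 (0.21, 0.12, 0.00 and 0.12) or tTA mouse 5 (0.23), in a range of -0.53 to 0.23. Plek 1448748_at was 0.01 in CA1 without rTg4510 mouse 6 and 0.064 without tTA mouse 5 (range -0.28 to 0.064), and in the DG 0.01, 0.00 and 0.02 without rTg4510 mice 1, 3 and 6, 0.15 without tTA mouse 5 (range -0.18 to 0.15) and 0.0042 without the 5 arrays. With all arrays the DG means in rTg4510 and tTA mice were 2.82 and 2.85 for 1417523_at, and 2.50 and 2.56 for 1448748_at. Ctss in CA1 between tTA and DN mice was 1.18 in linear units, 0.45 with array weights, 0.03 without DN mouse 1 and 0.28 without tTA mouse 4 (range -0.31 to 0.28). The cause of these changes was not tested. Probe sets below the array median, all of Trem2 among them in nearly every array, limit what differences can be seen.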
